A study of Mus musculus with 10 samples.

Results

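Cortical neurons talk to each other mainly through ligand-gated ion channels, and the genes described here encode the subunits of those channels for glutamate and for GABA. The members were all genes with an ionotropic glutamate receptor symbol (AMPA, kainate, NMDA or delta type) or a GABA-A receptor symbol (alpha, beta, gamma, delta, epsilon, pi, theta or rho type). They were read from probe sets with exactly 1 gene symbol, and the brightest probe set stood for each gene. There were 32 such genes, 16 for glutamate and 16 for GABA-A receptors, among the 22180 genes on the arrays.

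The RNA came from cultured mouse cortical neurons, prepared from embryos of embryonic day 14.5 to 15.5, and was read on 10 Affymetrix arrays. The wildtype neurons received vehicle (2 arrays) or 5 µM sodium arsenite (4 arrays), and ATF4-deficient neurons received vehicle (2 arrays) or 5 µM sodium arsenite (2 arrays). Treatment began on day 7 in culture and lasted 12 h in all groups. ATF4 is a transcription factor that drives the gene programme of the integrated stress response, and arsenite is a stressor that switches that response on. The labels give neither the strain, the sex, the allele behind the ATF4 deficiency nor the vehicle, and they do not say which arrays share an embryo, a litter or a culture. The titles call the arrays of a group biological replicates, and each p-value reflects the spread among these arrays.

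Ionotropic glutamate receptors are tetramers that pass cations and excite the cell. AMPA receptors carry the fast current, kainate receptors sit on either side of the synapse and tune release and excitability, and NMDA receptors pass calcium when glutamate and depolarisation coincide. GABA-A receptors are pentamers that pass chloride and usually quiet the cell once neurons have lowered their internal chloride. Most hold alpha, beta and gamma subunits, and the alpha subunit sets much of where the receptor sits and which drugs it binds. In young cortical neurons, receptors with the alpha2, alpha3 and alpha5 subunits are known to be prominent.

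Atf4 itself was at 9.09 and 9.56 (log2) in the wildtype vehicle arrays, 9.43 to 9.91 in the wildtype arsenite arrays, 7.65 and 7.48 in the ATF4-deficient vehicle arrays and 7.54 and 7.70 in the ATF4-deficient arsenite arrays. The difference between genotypes was called under vehicle (limma, adjusted p = 0.00876) and under arsenite (adjusted p = 0.000718), which matches the labels. Array medians lay between 6.75 and 6.81, and correlations between arrays between 0.982 and 0.994. ATF4-deficient arsenite replicate 2 had a score of 29.4 on the leading principal component, where the other 9 arrays ranged from -18.2 to 8.70. The neuron markers (11 of 11 measured) averaged 10.27 to 10.45 over the 10 arrays. A level counts as dim here when the mean over all arrays was at or below 6.64, the 90th percentile of 1390 olfactory and vomeronasal receptor genes, and 26 of the 32 subunits were above it. Since probe sets differ in their response, the level of a gene is compared only with the same gene on other arrays.

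Of the 32 subunits, 3 passed an adjusted p of 0.05 in at least 1 of the 7 comparisons and 29 passed in none. Gabra5, the alpha5 subunit of mostly extrasynaptic GABA-A receptors, fell with arsenite. Gria4, the AMPA receptor subunit GluA4, rose with arsenite. Gabra2, the alpha2 subunit found at synapses on cell bodies and axon initial segments, was higher in ATF4-deficient neurons. The 250 bases before the annotated start of these genes are shown because the study varied a transcription factor, ATF4, and a stressor, arsenite. They are from RefSeq, build GRCm38.p6, and are written 5′ to 3′ in the direction of the gene. The Gabra2 stretch is chr5:71095850-71096099, that of Gabra5 is chr7:57510060-57510309 and that of Gria4 is chr9:4796235-4796484, all on the minus strand. Capitals mark the letters GCGNGGGCG of the EGR element, and the rest is in lower case.
Gabra2: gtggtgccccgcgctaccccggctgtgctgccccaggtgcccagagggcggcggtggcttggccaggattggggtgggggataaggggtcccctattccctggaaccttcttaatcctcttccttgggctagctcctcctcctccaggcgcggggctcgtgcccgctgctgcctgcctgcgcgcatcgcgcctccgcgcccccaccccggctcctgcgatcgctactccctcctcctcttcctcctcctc
Gabra5: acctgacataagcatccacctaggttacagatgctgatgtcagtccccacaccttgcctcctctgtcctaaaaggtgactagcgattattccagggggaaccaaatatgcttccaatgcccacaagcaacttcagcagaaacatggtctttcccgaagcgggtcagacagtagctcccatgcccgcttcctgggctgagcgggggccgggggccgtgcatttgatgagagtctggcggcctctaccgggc
Gria4: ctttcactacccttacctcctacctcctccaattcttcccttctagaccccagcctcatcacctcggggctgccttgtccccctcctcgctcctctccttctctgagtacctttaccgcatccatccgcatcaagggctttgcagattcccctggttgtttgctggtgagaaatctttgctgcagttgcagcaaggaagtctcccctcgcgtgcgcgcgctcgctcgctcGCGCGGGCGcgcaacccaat

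The C/EBP-ATF element was searched as TGATGNAA, the cyclic AMP response element as TGACGTCA, the AP-1 element as TGANTCA, the antioxidant response element as TGACNNNGC and the EGR element as GCGNGGGCG, on both strands of the same 250 bases. The EGR element was added after the first searches had given no match in these 3 stretches. Of the 32 subunits, 24 had a sequence, and some had more than 1 promoter. A subunit was counted when any of its promoters held the letters, while the percentages are shares of single promoters. The C/EBP-ATF letters stood before Gabra6 alone among them, against 3.45% of 32851 promoters of the same length, and the cyclic AMP response element before 0 subunits, against 1.55%. The AP-1 letters stood before Grin3b (6.75% of all promoters), and the antioxidant response letters before Gabrb2, Gabrq, Grin2d and Grin3b (10.2%). The EGR letters stood before Gabrb2 and Gria4 (4.7%), and in Gria4 they lie 20 to 12 bases before the start. The 250 bases before Gabra2 were 70% G and C, those before Gria4 58.8% and those before Gabra5 56.4%, against a median of 52.4% over all promoters. A match says only that the letters are there.

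Arsenite in wildtype neurons was compared first. Of the 32 subunits 0 passed an adjusted p of 0.05 (0.482% of all genes did), 4 had an unadjusted p under 0.05 (10.9% of all genes) and 6 had arsenite arrays entirely above or below the vehicle arrays (20.6% of all genes). In ATF4-deficient neurons arsenite raised Gria4 and lowered Gabra5, 2 of 32 subunits, where 1.15% of all genes passed. There 4 subunits had an unadjusted p under 0.05 (12.0% of all genes) and 19 had groups that did not overlap (38.8%), 6 higher and 13 lower. The mean of both genotypes' arsenite differences gave the same pair, Gria4 higher and Gabra5 lower, with 3.07% of all genes called. On that mean, 1 subunit was higher and 7 were lower at an unadjusted p under 0.05 (16.1% of all genes). The counts at an unadjusted p are near those of all genes in the single-genotype comparisons.

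**Figure D1:**
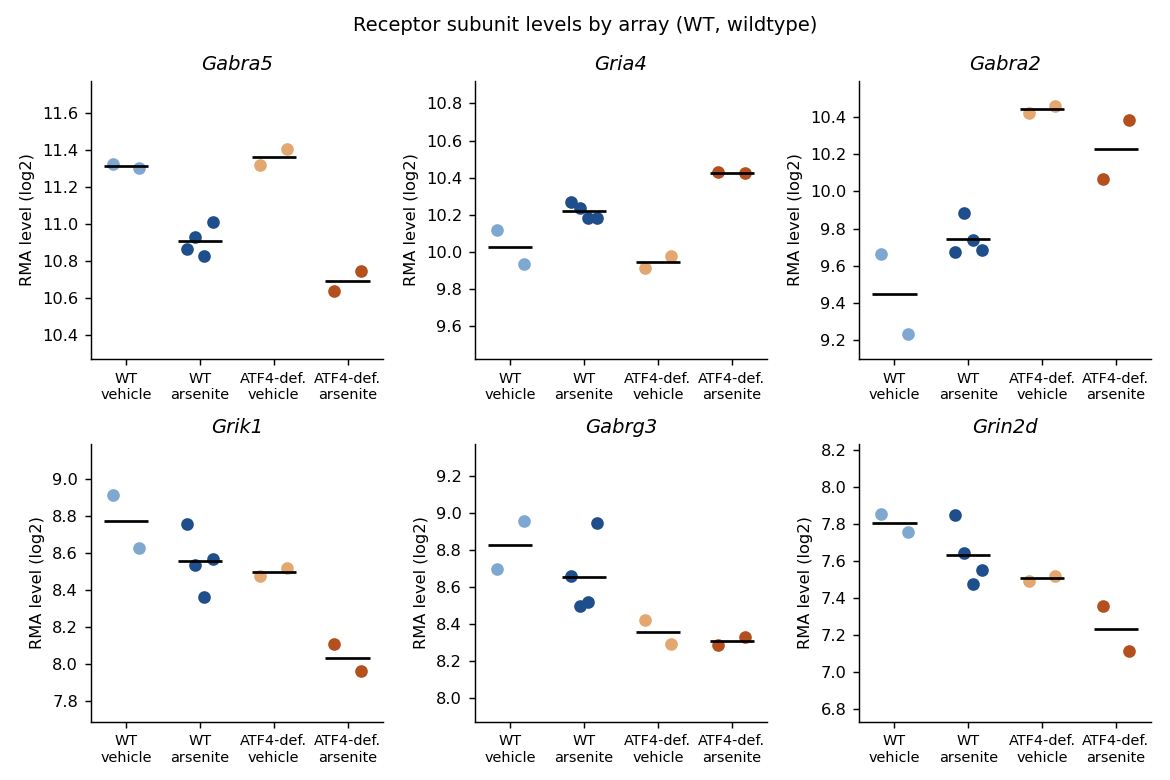
Levels of 6 receptor subunits (log2, vertical axis, each panel spanning the same height) on every array, by group; points are arrays and black lines group means. The arsenite arrays of Gabra5 lie below all vehicle arrays, those of Gria4 above all vehicle arrays, and the ATF4-deficient arrays of Gabra2 above all wildtype arrays.

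Gabra5 had the steepest arsenite difference of the subunits in each genotype. It was at 11.33 and 11.30 in wildtype vehicle arrays, at 10.86, 10.93, 10.83 and 11.01 in wildtype arsenite, at 11.31 and 11.41 in ATF4-deficient vehicle arrays, then at 10.64 and 10.75 in the ATF4-deficient arsenite arrays. All 6 arsenite arrays therefore lay below all 4 vehicle arrays. In ATF4-deficient neurons it fell by 0.67 on the log2 scale (SE 0.0986, limma, adjusted p = 0.0127), which is 1.59-fold. In wildtype neurons the difference was -0.41 (SE 0.0854, adjusted p = 0.0717), and the mean of both genotypes fell by 0.54 (SE 0.0652, adjusted p = 0.00192). Without ATF4-deficient arsenite replicate 2 that mean was -0.57 (adjusted p = 0.00765), and leaving out any of the 10 arrays kept the call, with adjusted p from 0.00317 to 0.0147. The call within ATF4-deficient neurons was lost without each of the 4 arrays of that genotype (adjusted p from 0.0502 to 0.101; 0.0502 without ATF4-deficient arsenite replicate 2), and in a fit of those 4 arrays alone (adjusted p = 0.255).

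The vehicle levels of Gabra5 did not separate the genotypes (difference 0.05, 95% interval -0.17 to 0.26). Under arsenite the ATF4-deficient arrays were lower than the wildtype arrays by an estimate of -0.22 (adjusted p = 0.340). The difference between the genotypes' arsenite responses was -0.26 (95% interval -0.55 to 0.02, adjusted p = 0.839), so a stronger fall in ATF4-deficient neurons was not shown. Relative to the mean of Gabra2, Gabra3 and Gabra4 on the same array, and set to 0 for wildtype vehicle, Gabra5 was at -0.48 ± 0.09 (SD, n = 4) in wildtype arsenite, -0.35 ± 0.16 (SD, n = 2) in ATF4-deficient vehicle and -0.92 ± 0.06 (SD, n = 2) in ATF4-deficient arsenite arrays. Gabra2, higher in the ATF4-deficient arrays, is part of that mean.

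Gria4 was at 10.12 and 9.93 in wildtype vehicle arrays, at 10.27, 10.24, 10.18 and 10.18 in wildtype arsenite, at 9.91 and 9.98 in ATF4-deficient vehicle arrays, then at 10.43 and 10.42 in the ATF4-deficient arsenite arrays. All arsenite arrays lay above all vehicle arrays, by the least margin in wildtype. In ATF4-deficient neurons it rose by 0.48 (SE 0.0957, limma, adjusted p = 0.0398), or 1.40-fold, and over both genotypes by 0.34 (SE 0.0633, adjusted p = 0.0181). The wildtype difference was 0.19 (SE 0.0829, adjusted p = 0.417). The call in ATF4-deficient neurons was lost without each of the 10 arrays in turn, with adjusted p from 0.0517 to 0.228 (0.175 without ATF4-deficient arsenite replicate 2). It was also lost with array weights, a trended prior and the fit of 4 arrays alone (adjusted p = 0.0665, 0.0509 and 0.280). Over both genotypes the adjusted p missed 0.05 without wildtype vehicle replicate 2 (0.0797), ATF4-deficient vehicle replicates 1 (0.0746) and 2 (0.0513) and ATF4-deficient arsenite replicate 2 (0.0549), and passed without each of the other 6 arrays.

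The other AMPA receptor subunits gave no call in any comparison. Gria1, which encodes GluA1, was at 10.80 on both wildtype vehicle arrays, 10.73 to 10.99 in wildtype arsenite, 10.58 and 10.48 in ATF4-deficient vehicle arrays, then 10.88 and 10.63 in the ATF4-deficient arsenite arrays. Its arsenite differences were 0.08 and 0.23 (wildtype, then ATF4-deficient; adjusted p = 0.852 and 0.483). Gria2, whose edited product GluA2 makes the channel calcium-impermeable, had arsenite differences of 0.07 and 0.01 (adjusted p = 0.892 and 0.99), with all arrays between 11.57 and 12.01. Gria3 gave -0.12 and -0.04. Relative to the mean of Gria1, Gria2 and Gria3 on the same array, Gria4 was 0.18 ± 0.10 (SD, n = 4) above its wildtype vehicle mean in wildtype arsenite arrays and 0.36 ± 0.10 (SD, n = 2) above it in ATF4-deficient arsenite arrays, against -0.06 ± 0.02 (SD, n = 2) in ATF4-deficient vehicle arrays. Within the AMPA class, Gria4 thus differed from its partners on the same arrays, a description with no test.

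Among kainate receptor subunits, Grik1, which encodes the GluK1 subunit found mostly on interneurons, came nearest to a call. It was at 8.92 and 8.63 in wildtype vehicle arrays, 8.76, 8.54, 8.36 and 8.57 in wildtype arsenite, 8.47 and 8.52 in ATF4-deficient vehicle arrays, then 8.11 and 7.96 in the ATF4-deficient arsenite arrays. The ATF4-deficient arsenite arrays were the lowest of all. The arsenite differences were -0.22 in wildtype and -0.46 in ATF4-deficient neurons, with a mean of -0.34 (SE 0.0907, limma, adjusted p = 0.0748). That mean passed with only genes above the dim level (0.0477) and without wildtype arsenite replicate 1 (0.0499). Grik5, which encodes the kainate subunit GluK5, was at 9.96 and 9.95 in wildtype vehicle arrays and 9.54 to 9.78 in wildtype arsenite arrays. The Grik5 groups did not overlap (-0.26, limma, adjusted p = 0.367). In ATF4-deficient neurons its difference was -0.17 (adjusted p = 0.640). Grik2, the most widely used kainate subunit GluK2, had differences of -0.11 and 0.04, Grik3 of 0.10 and 0.31 and Grik4 of 0.09 and 0.07, and none of them passed.

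The NMDA receptor subunits had arsenite estimates below 0 for 6 of 6 members on the mean of both genotypes, with a median of -0.09 and no call. Grin2d, the GluN2D subunit of interneurons and early development, had the lowest, -0.22 (adjusted p = 0.227). Grin2a, which encodes the GluN2A subunit that gains weight as synapses mature, was at 7.64 and 7.75 in wildtype vehicle arrays, 7.57 to 7.76 in wildtype arsenite, 7.73 and 7.87 in ATF4-deficient vehicle arrays, then 7.71 and 7.39 in the ATF4-deficient arsenite arrays. Its differences were -0.01 and -0.25 (adjusted p = 0.980 and 0.459). Grin2b, the GluN2B subunit of young synapses, had differences of -0.17 and 0.07 (adjusted p = 0.688 and 0.891). The delta receptor subunit Grid1, a synaptic organiser, gave 0.06 and 0.21 (adjusted p = 0.887 and 0.435). The median arsenite difference over both genotypes was -0.03 for the 16 glutamate subunits and -0.01 for all genes tested.

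On the GABA-A side, 13 of 16 arsenite estimates were below 0 in ATF4-deficient neurons and 9 of 16 in wildtype neurons, where 11702 and 12229 of all 22180 genes were. The medians were -0.09 and -0.02, against -0.01 and -0.02 for all genes. Apart from Gabra5, no GABA-A subunit was called for arsenite. Gabrg1, a gamma subunit, was at 7.88 and 8.01 in the wildtype vehicle arrays and 7.56 to 7.81 in wildtype arsenite arrays, and at 8.29 and 8.12 in ATF4-deficient vehicle arrays, then 8.0 and 7.71 in the ATF4-deficient arsenite arrays. Arsenite arrays lay below vehicle arrays in each genotype, with a mean difference of -0.29 (SE 0.0838, limma, adjusted p = 0.0944). Gabra2 moved in opposite directions, 0.30 in wildtype (adjusted p = 0.427) and -0.22 in ATF4-deficient neurons (adjusted p = 0.631), and neither passed.

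**Figure D2:**
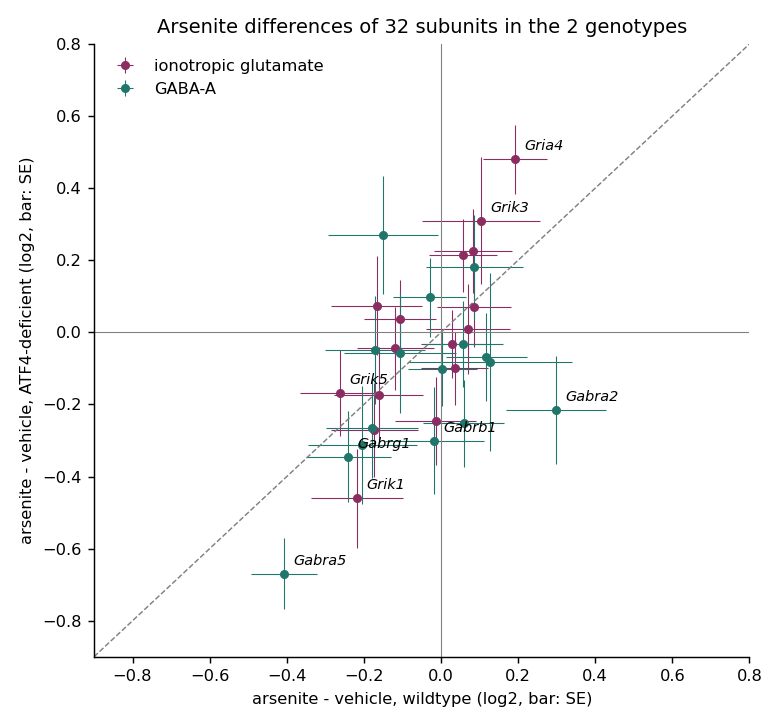
Arsenite difference of the 32 subunits in ATF4-deficient neurons (vertical axis, log2) against that in wildtype neurons (horizontal axis, log2); bars are standard errors and the dashed line marks equal differences. Gabra5 lies lowest at -0.41 and -0.67, Gria4 highest at 0.19 and 0.48, and Gabra2 to the right at 0.30 and -0.22.

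The difference between the 2 genotypes' arsenite responses was then tested for every gene. By limma 0 of the 22180 genes passed an adjusted p of 0.05, so 0% of genes and 0 of the 32 subunits were called. At an unadjusted p under 0.05 there were 2 subunits, Gria4 higher and Gabra2 lower, where 6.0% of all genes were. For Gabra2 the difference was -0.51 (95% interval -0.95 to -0.08, adjusted p = 0.826) and for Gria4 0.29 (95% interval 0.01 to 0.57, adjusted p = 0.828). No subunit was thus shown to respond to arsenite differently without ATF4. The intervals of single-genotype differences had a median half-width of 0.27 (2 against 2 arrays) and 0.24 (4 against 2 arrays) over the subunits.

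The genotypes were then compared under each treatment. Under vehicle 1 of 32 subunits was called, Gabra2, where 0.433% of all genes were. At an unadjusted p under 0.05 there were 8, 3 higher and 5 lower (10.9% of all genes), and 17 had groups that did not overlap (42.5%). Under arsenite 0 were called (0.343% of all genes), 8 had an unadjusted p under 0.05 (12.1%) and 11 had groups that did not overlap (18.5%). On the mean of both treatments Gabra2 alone was called (1.82% of all genes) and 13 had an unadjusted p under 0.05, 7 higher and 6 lower (16.3%). The wildtype vehicle arrays enter both the wildtype arsenite difference and the vehicle genotype difference, so these are not independent.

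Gabra2 was at 9.66 and 9.23 in wildtype vehicle arrays, at 9.68, 9.88, 9.74 and 9.69 in wildtype arsenite, at 10.43 and 10.46 in ATF4-deficient vehicle arrays, then at 10.07 and 10.39 in the ATF4-deficient arsenite arrays. All 4 ATF4-deficient arrays lay above all 6 wildtype arrays. Under vehicle it was higher by 1.00 (SE 0.150, limma, adjusted p = 0.0236), a 2.00-fold difference, and on the mean of both treatments by 0.74 (SE 0.0992, adjusted p = 0.00654), or 1.67-fold. Under arsenite the estimate was 0.48 (adjusted p = 0.184). The call on the mean was kept without each of the 10 arrays (adjusted p from 0.00621 to 0.0485; 0.0321 without ATF4-deficient arsenite replicate 2). The vehicle difference no longer passed without wildtype vehicle replicate 2 (0.78, adjusted p = 0.192), which is the lowest array, without ATF4-deficient vehicle replicate 1 (adjusted p = 0.0764) or 2 (0.245), and in a fit of the 4 vehicle arrays alone (0.219). Relative to the mean of Gabra3, Gabra4 and Gabra5 on the same array, Gabra2 was 0.92 ± 0.11 (SD, n = 2) above its wildtype vehicle mean in ATF4-deficient vehicle, 0.95 ± 0.25 (SD, n = 2) in ATF4-deficient arsenite and 0.46 ± 0.17 (SD, n = 4) in wildtype arsenite arrays. Gabra5, lower with arsenite, is part of that mean.

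**Figure D3:**
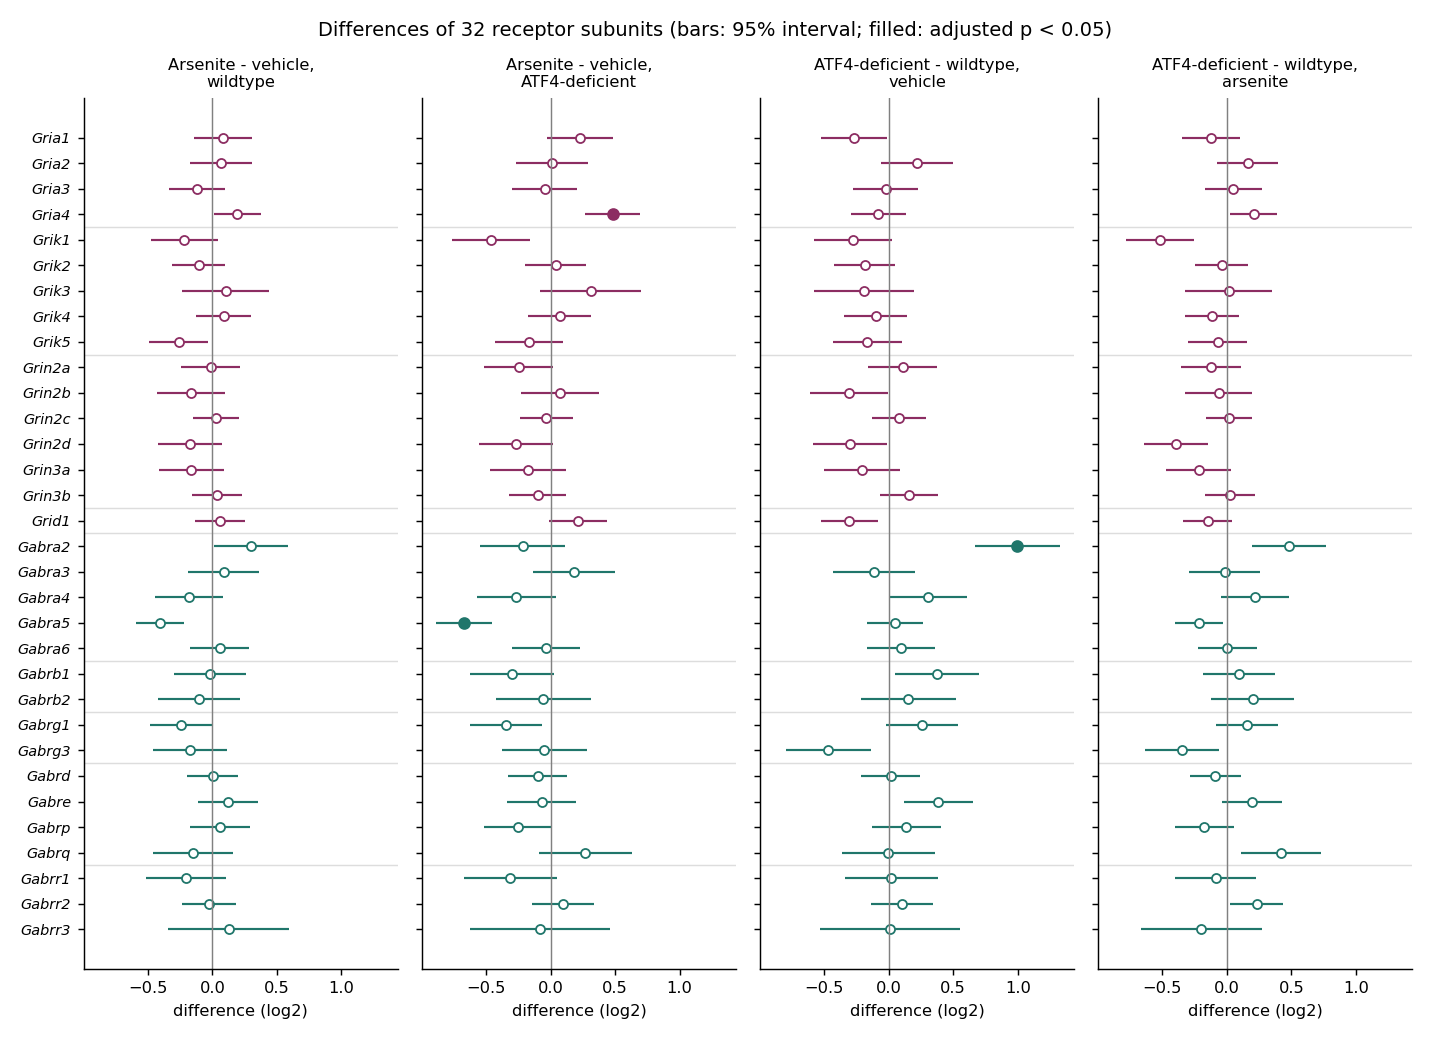
Differences of all 32 subunits (log2, horizontal axis, point with 95% interval) for arsenite in each genotype and for genotype under each treatment; glutamate subunits are purple, GABA-A subunits green, grey lines part the classes, and filled points passed an adjusted p of 0.05. The filled points are Gria4 and Gabra5 for arsenite in ATF4-deficient neurons and Gabra2 for genotype under vehicle.

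Cell type markers differed between the genotypes and with arsenite. The astrocyte list (13 of 13 measured; S100b, Fgfr3 and Gjb6 dim) averaged 8.18 to 8.41 in wildtype vehicle arrays, 7.60 to 8.14 in wildtype arsenite, 7.32 to 7.63 in ATF4-deficient vehicle and 7.21 to 7.53 in ATF4-deficient arsenite arrays, and 6 of its 13 genes were called lower on the mean of both treatments, where 1.82% of all genes were called in either direction. In that comparison 3 of 9 oligodendrocyte lineage genes (Olig1, Olig2 and Pdgfra), the progenitor genes Hes5 and Sox2, the inhibitory neuron gene Dlx2 and the neuron gene Tubb3 were also called lower, and the neuron gene Nefl, the excitatory neuron gene Slc17a6 and the vascular gene Rgs5 higher. The oligodendrocyte lineage list (9 of 10 measured, none dim) averaged 7.54 to 7.68, 7.30 to 7.48, 7.26 to 7.31 and 7.02 to 7.20 in the same order. The inhibitory neuron list (11 of 12 measured; Vip dim) averaged 8.83 to 8.90, 8.68 to 8.91, 8.49 to 8.78 and 8.26 to 8.69. The excitatory neuron list (10 of 11 measured; Neurod1 and Emx1 dim) averaged 8.64 to 8.69, 8.38 to 8.58, 8.60 to 8.67 and 8.62 to 8.64. Over all arrays the progenitor list (8 of 9 measured; Cdk1 dim) averaged 7.17 to 7.59, the microglia list (9 of 9; Csf1r, P2ry12 and Itgam dim) 6.92 to 7.15 and the vascular list (10 of 10; Cldn5, Flt1, Tek, Rgs5 and Kcnj8 dim) 6.63 to 6.87. In such bulk RNA fewer cells of a type and less RNA per cell cannot be told apart. The astrocyte level ran against Gabra2 between the genotypes and with Grik1, Grin2d and Gabrg3. The inhibitory neuron list also ran lower in ATF4-deficient arrays. On the mean of both treatments, 8 of its 11 estimates were below 0 and 3 above (median -0.28). By limma 6 were lower at an unadjusted p under 0.05, where 16.3% of all genes passed in either direction. For arsenite on the mean of both genotypes, 9 were below 0 and 2 above (median -0.14). The astrocyte level was also lower with arsenite, beside the lower Gabra5, Gabrg1 and Grik1 estimates. In wildtype neurons 13 of 13 estimates were below 0 (median -0.42, 0 called and 8 at an unadjusted p under 0.05). In ATF4-deficient neurons 9 of 13 were below 0 (median -0.13). On the mean of both genotypes, arsenite lowered Gfap (-0.37, limma, adjusted p = 0.0403) and Pdgfra (-0.59, adjusted p = 0.0152), and raised Slc17a6. There 3.07% of all genes were called. In wildtype alone Pdgfra was called lower (-0.76, adjusted p = 0.0464), and in ATF4-deficient neurons Rgs5 (-1.035, adjusted p = 0.0450). The part of these cell types in these results was not tested.

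**Figure D4:**
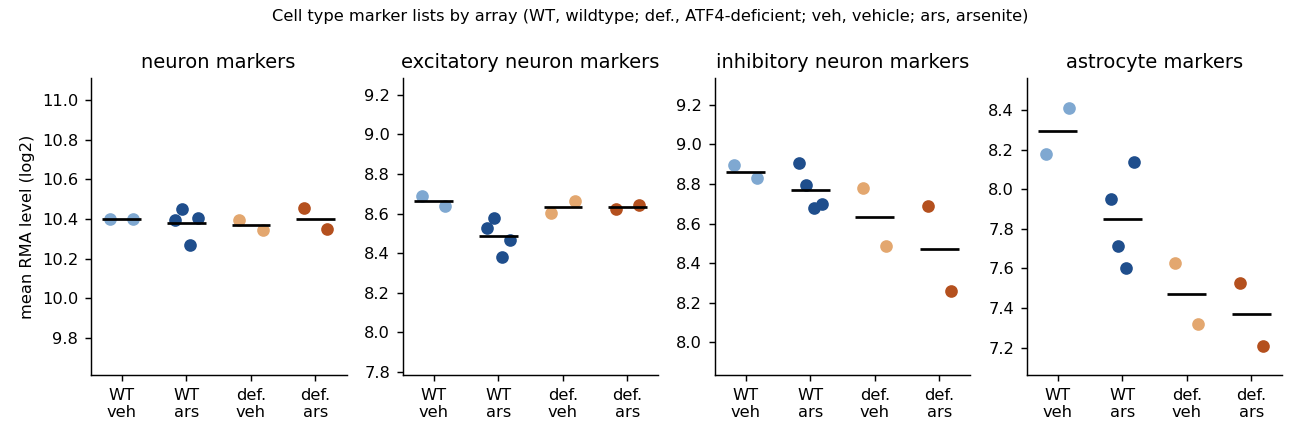
Mean level of 4 marker lists (log2, vertical axis, equal heights) on each array by group; points are arrays and black lines group means. The neuron list mean, which holds Tubb3 (called lower, -0.44) and Nefl (called higher, 0.49) for genotype, stays between 10.27 and 10.45, while the astrocyte list runs from 8.41 on a wildtype vehicle array down to 7.21 on an ATF4-deficient arsenite array.

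Gabra2 lies in a cluster of GABA-A genes. In the GRCm38.p6 annotation chromosome 5 holds Gabrg1, Gabra2, Gabra4 and Gabrb1 in this order, with Cox7b2 between Gabra2 and Gabra4. Under vehicle all 4 had ATF4-deficient arrays entirely above the wildtype arrays. Over all genes, 42.5% had groups that did not overlap, counted in either direction. The 4 differences were 0.26, 1.00, 0.30 and 0.38, of which only that of Gabra2 was called (limma, adjusted p = 0.497, 0.0236, 0.460 and 0.374). Under arsenite the estimates were 0.15, 0.48, 0.22 and 0.09. Gabra4, a subunit of extrasynaptic receptors, was at 8.61 and 8.45 in wildtype vehicle against 8.86 and 8.80 in ATF4-deficient vehicle arrays. Gabrb1, a beta subunit, was at 9.86 and 9.81 against 10.12 and 10.30. The other 3 genes thus had smaller estimates of the same sign as Gabra2 that missed the adjusted threshold. The unadjusted vehicle interval of Gabrb1 lay above 0 (0.05 to 0.70), while those of Gabrg1 and Gabra4 included 0.

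**Figure D5:**
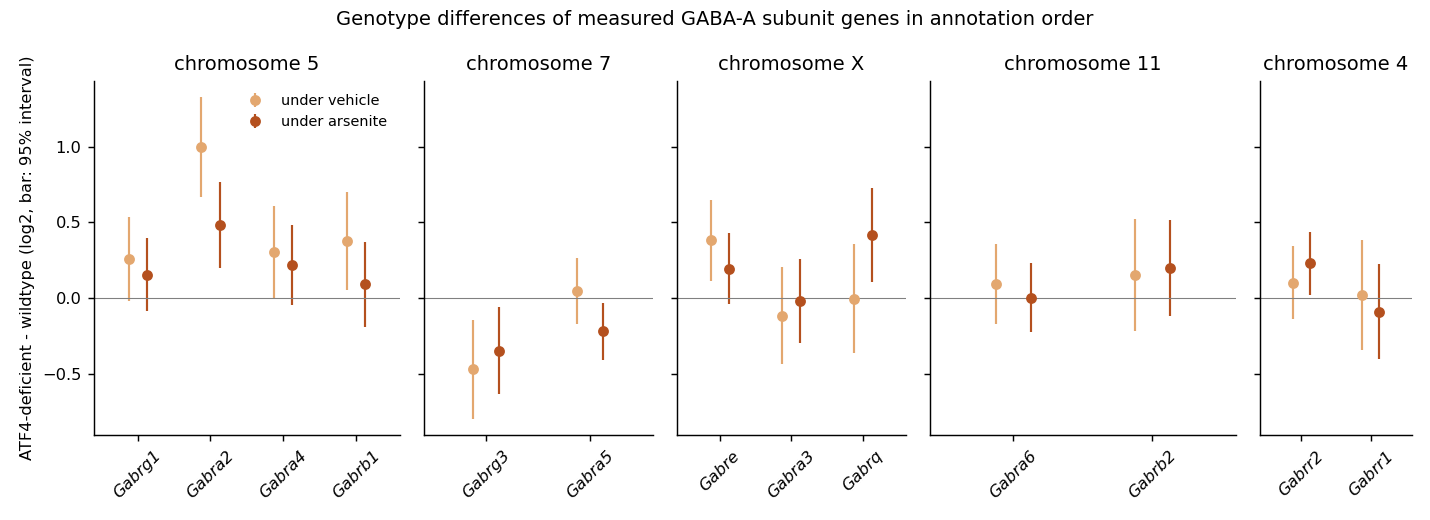
Genotype differences (ATF4-deficient minus wildtype, log2, vertical axis, with 95% intervals) of measured GABA-A subunit genes in their annotation order on chromosomes 5, 7, X, 11 and 4, not to scale along the chromosome. On chromosome 5 all 4 estimates lie above 0 under each treatment, while on chromosome 7 Gabrg3 lies below 0 at -0.47 under vehicle.

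The GABA-A clusters on chromosomes 7 and X did not share a sign under vehicle, while those on chromosomes 11 and 4 had only positive estimates. On chromosome 11 Gabra6 gave 0.09 and Gabrb2 0.15, and on chromosome 4 Gabrr2 gave 0.10 and Gabrr1 0.02. Of these genes only Gabrb2 was above the dim level, and none was called. Under arsenite their estimates were 0.003, 0.20, 0.23 and -0.09 in the same order. On chromosome 7, Gabrg3, a gamma subunit, lies beside Gabra5. Gabrg3 was at 8.70 and 8.96 in wildtype vehicle arrays, 8.66, 8.50, 8.52 and 8.95 in wildtype arsenite, 8.42 and 8.29 in ATF4-deficient vehicle arrays, then 8.29 and 8.33 in the ATF4-deficient arsenite arrays. All ATF4-deficient arrays lay below all wildtype arrays, and the mean of both treatments was -0.41 (SE 0.0991, limma, adjusted p = 0.0689). Gabra5, its neighbour, gave 0.05 and -0.22 under vehicle and arsenite. On chromosome X, Gabre, the epsilon subunit, was near the dim level, at 6.57 and 6.52 in wildtype vehicle arrays, 6.48 to 6.8 in wildtype arsenite, 6.92 and 6.93 in ATF4-deficient vehicle arrays, then 6.97 and 6.74 in the ATF4-deficient arsenite arrays, with a mean difference of 0.29 (adjusted p = 0.106). Its neighbours Gabra3 and Gabrq gave -0.11 and -0.0028 under vehicle.

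Glutamate subunits leaned the other way under vehicle. Of the 16, 12 had estimates below 0 in ATF4-deficient neurons, with a median of -0.17, while 13 of the 16 GABA-A estimates were above 0, with a median of 0.10. Over all genes the median was 0.004. The 6 dim subunits, all of the GABA-A type, gave 5 of those 13. On the mean of both treatments 11 of 16 glutamate estimates were below 0 and 9 of 16 GABA-A estimates above 0. Since 1 vehicle pair of arrays sets the sign of all these genes at once, the counts describe these arrays and are no test.

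All 5 kainate subunits had vehicle estimates below 0, from -0.28 for Grik1 to -0.10 for Grik4, and none passed. Grik1 was the lowest under arsenite too, at -0.52 (SE 0.119, limma, adjusted p = 0.118), and its mean of both treatments was -0.40 (SE 0.0907, adjusted p = 0.0542). That value crossed the threshold with only genes above the dim level (0.0339), with a trended prior (0.0487) and without wildtype arsenite replicate 3 (0.0385). Grik2 was at 9.75 and 9.58 in wildtype vehicle arrays, 9.43 to 9.63 in wildtype arsenite, 9.44 and 9.52 in ATF4-deficient vehicle arrays, then 9.46 and 9.57 in the ATF4-deficient arsenite arrays, which is -0.18 under vehicle and -0.04 under arsenite.

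Among NMDA subunits Grin2d was at 7.85 and 7.75 in wildtype vehicle arrays, 7.85, 7.64, 7.48 and 7.55 in wildtype arsenite, 7.49 and 7.52 in ATF4-deficient vehicle arrays, then 7.35 and 7.11 in the ATF4-deficient arsenite arrays. Its ATF4-deficient arrays lay below the wildtype arrays under each treatment, with a mean difference of -0.35 (SE 0.0862, limma, adjusted p = 0.0751). A dimmer Grin2d probe set gave 0.07 and -0.09 where the brighter gave -0.30 and -0.40 under vehicle and arsenite, and across arrays the pair correlated at 0.07, so the estimate rests on 1 probe set. Grin2b was at 11.06 and 11.18 in wildtype vehicle arrays, 10.75 to 11.16 in wildtype arsenite, 10.90 and 10.74 in ATF4-deficient vehicle arrays, then 11 and 10.79 in the ATF4-deficient arsenite arrays, or -0.31 under vehicle (adjusted p = 0.451) and -0.06 under arsenite. Its second probe set, below the dim level, correlated with the first at 0.08. Grin2a differed by 0.11 and -0.12.

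For AMPA and delta subunits, Gria1 differed by -0.27 under vehicle (adjusted p = 0.436), with ATF4-deficient vehicle arrays below the wildtype ones, and by -0.12 under arsenite. Gria2 differed by 0.22 and 0.16 and Gria4 by -0.08 and 0.21. Grid1 was at 8.83 and 8.87 in wildtype vehicle arrays, 8.76 to 8.99 in wildtype arsenite, 8.55 and 8.54 in ATF4-deficient vehicle arrays, then 8.76 and 8.75 in the ATF4-deficient arsenite arrays. Its vehicle groups stood apart (-0.31, SE 0.101, limma, adjusted p = 0.268), and its arsenite estimate was -0.15.

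The other 15 subunits passed in no comparison. They are Gria3, Grik3, Grik4, Grin2c, Grin3a, Grin3b, Gabra3, Gabra6, Gabrb2, Gabrd, Gabrp, Gabrq, Gabrr1, Gabrr2 and Gabrr3. Gabra6, Gabrp, Gabrq and the rho subunits Gabrr1, Gabrr2 and Gabrr3 were dim, so a difference in them could be hidden by background. Gabra6, a cerebellar granule cell subunit, was lowest against the dim level, with arrays between 3.76 and 4.10. Gabrd, the delta subunit of tonic receptors, stayed between 7.03 and 7.30, and Grin2c between 6.64 and 6.82. A second Grin2c probe set, below the dim level, correlated with the one used at -0.34. Its arsenite differences were -0.05 in wildtype and -0.58 in ATF4-deficient neurons. Its genotype differences were -0.18 under vehicle and -0.71 under arsenite. Gabrq under arsenite had the widest genotype estimate of the 15, at 0.42 (adjusted p = 0.283).

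The genes that build, anchor and supply these receptors were read from lists, beside 3.07% of all genes called for arsenite on the mean of both genotypes, 1.82% for genotype on the mean of both treatments and 0.433% for genotype under vehicle. A list of 19 genes held auxiliary subunits of AMPA and kainate receptors and proteins that work with these receptors. Of these, Gsg1l, which slows AMPA receptor recovery, rose with arsenite on the mean of both genotypes (0.41, SE 0.0897, limma, adjusted p = 0.0360), and 18 did not pass. Cacng3, a TARP that carries AMPA receptors to synapses, was lower in ATF4-deficient neurons on the mean of both treatments (-0.95, SE 0.197, limma, adjusted p = 0.0369). Its ATF4-deficient arrays stood far apart, at 9.14 and 8.32 under vehicle and 9.98 and 9.12 under arsenite. Calls in these lists were not rechecked with single arrays left out. Of the 19 vehicle genotype estimates of that list, 17 were below 0 (median -0.27) and 0 were called. Among all 22180 genes, 10839 were below 0. Of 28 measured scaffolds and partners of glutamate receptors, 3 fell with arsenite: the postsynaptic scaffolds Shank1 (-0.42, adjusted p = 0.0481) and Shank3 (-0.33, adjusted p = 0.0233) and Grasp (-0.37, adjusted p = 0.0203), a partner of metabotropic receptors. No gene of that list was called for genotype.

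Among 17 measured genes of GABA-A receptor anchoring and trafficking, Nlgn2, the adhesion protein of inhibitory synapses, fell with arsenite (-0.48, SE 0.107, limma, adjusted p = 0.0355). Shisa7, a GABA-A receptor auxiliary protein, was lower in ATF4-deficient neurons (-0.52, SE 0.106, adjusted p = 0.0339). Of 8 metabotropic glutamate and GABA-B receptors, the presynaptic receptors Grm2 (-0.94, adjusted p = 0.0130) and Grm8 (-0.34, adjusted p = 0.0467) fell with arsenite. Of 5 glycine receptor subunits, Glra3, itself dim, was higher in ATF4-deficient neurons under vehicle (0.61, adjusted p = 0.0402) and on the mean of both treatments (0.44, adjusted p = 0.0123), and lower with arsenite (-0.29, adjusted p = 0.0479). Of 12 measured genes of glutamate and GABA synthesis and transport, the vesicular transporter Slc17a6 rose with arsenite (0.31, adjusted p = 0.0354) and was higher in ATF4-deficient neurons (0.40, adjusted p = 0.0180). The glial glutamate transporter Slc1a3 (-1.66, adjusted p = 0.0132) and the GABA transporter Slc6a11 (-1.11, adjusted p = 0.0491) were lower there, beside the lower astrocyte markers given above.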

How the data were processed

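Total RNA was hybridised to 10 mouse Affymetrix arrays. The authors deposited log2 values per probe set, normalized by robust multiarray average in Partek Genomics Suite 6.6, per the labels' design text and per the submitters' processing notes. That method makes array distributions equal, so a shift shared by most transcripts would be removed. Scanner files were not analysed here. Of 41345 probe sets, 23521 had 1 gene symbol in the platform annotation, 1814 several and 16010 no entry; the brightest probe set stood for a gene. Symbols were matched to the GRCm38.p6 annotation, which also gave gene order and promoter sequences.

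All tests were made with limma 3.58.1 in R 4.3.3, with 1 mean per group over all 10 arrays (6 residual degrees of freedom, prior degrees of freedom 5.08, prior SD 0.124). The 7 comparisons were arsenite in each genotype, genotype under each treatment, their interaction, and the 2 averages. P-values were adjusted by Benjamini-Hochberg over 22180 genes, with a threshold of 0.05. The script was tested on simulated data. The number of arrays limits the precision. Neither a scan date nor a batch is named in the labels or the file.

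The members and gene lists were chosen with earlier results of these data known. Array values are given for 17 members: those called in any comparison, the 3 highest and 3 lowest per comparison at an unadjusted p under 0.05 with a group above the dim level, and textbook core subunits among the members. Alternatives were averaged probe sets, a dim filter, equal array medians, array weights, a trended robust prior, only the groups compared, the replicate number as a block, and leaving out each array.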

Additional observations from a re-analysis of the deposited data

Results flagged for a closer look

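Each of the 32 subunits was examined for an array far from the rest in the wildtype arsenite group, the only group of 4 arrays, and 2 were found, where chance gives about 1 in 20. Gria3 was at 9.37 on wildtype arsenite replicate 3 against 9.63 to 9.67 on the other 3 arrays, a gap of 0.8886 of the group's range. Gabrr2, which is dim, was at 6.21 on wildtype arsenite replicate 1 against 6.40 to 6.44, a gap of 0.8414 of the range. Neither subunit was called in any comparison.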

How the results depend on the processing

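No called result changed direction under the alternatives run; medians near 0 could change sign, as that of the kainate interaction did (0.09, from -0.01 to 0.11). The Gabra5 fall over both genotypes and the higher Gabra2 over both treatments passed under every alternative run (adjusted p from 0.00110 to 0.00732 and from 0.00378 to 0.0283, leaving out arrays aside). For arsenite in wildtype neurons, the calls were 107 genes and 0 subunits; a dim filter gave 162 and 1 (Gabra5, adjusted p = 0.0451), array weights 186 and 1 (Gabra5, 0.0464), and only the groups compared 11 genes. For arsenite in ATF4-deficient neurons (256 genes, 2 subunits), array weights gave 135 and 1, the trended prior 1 subunit, and only the groups compared 0 and 0. For genotype under vehicle (96 genes, 1 subunit), a dim filter gave 190, array weights 228, and only the groups compared 0 and 0. Genotype under arsenite (76 genes) had 40 with array weights and 41 with only the groups compared. For genotype over both treatments (404 genes, 1 subunit), a dim filter called 4 subunits (Gabra2, Gabrg3, Grik1 and Grin2d) and the trended prior 2. A dim filter tests fewer genes; the cause of the other shifts was not tested. Equal array medians changed no subunit's call.

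Leaving out each array in turn gave 0 to 75 genes for arsenite in wildtype, 50 to 200 genes and 0 to 1 subunits for arsenite in ATF4-deficient neurons, 0 to 99 genes and 0 to 1 subunits for genotype under vehicle, 1 to 64 genes for genotype under arsenite, 242 to 654 genes and 1 to 3 subunits for arsenite over both genotypes, and 58 to 377 genes and 1 to 2 subunits for genotype over both treatments. The interaction had 0 calls throughout. Of 1153 medians recomputed for classes and for all subunits, 62 moved by more than the spread between replicates, 48 of them on leaving out an array.

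The titles number the replicates alike in each group, but same-numbered arrays deviated from their group means with correlations from -0.06 to 0.40, and not all were over 0.1, so the numbers were not taken to pair the samples. The highest were 0.40 within ATF4-deficient neurons and 0.39 between the arsenite groups (number 2), so a shared source there was not settled. With the replicate number as a block, 17 genes were called for arsenite in wildtype, 165 for genotype under vehicle and 4 for genotype under arsenite. For arsenite in ATF4-deficient neurons 1 subunit was then called, Gabra5 (limma, adjusted p = 0.0208), while Gria4 was not (adjusted p = 0.0654). For genotype over both treatments 3 subunits were called (Gabra2, Grik1 and Grin2d).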
